A study of Homo sapiens with 9 samples.

Results

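The genes described here are those of glycolysis, the pathway that splits glucose into pyruvate, and of the cell's transcriptional response to low oxygen. The list held 41 genes, chosen by name for their function: glucose transporters, glycolytic enzymes and their regulators, enzymes and carriers of lactate, the α subunits of the hypoxia-inducible factor (HIF) with the enzymes that mark them for breakdown, and genes that HIF induces. A gene was measured by a probe set, a group of array probes with a joint signal, if the annotation gave that probe set this gene's symbol alone and its log2 signal reached 5 in at least 1 array. The brightest such probe set stood for the gene. This gave values for 36 of the 41 members, out of 11233 genes measured in the same way.

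The RNA came from the study of tissue factor pathway inhibitor (TFPI), a secreted or membrane-bound inhibitor of blood coagulation, in cells labelled SK-BR-3, a human breast cancer cell line of luminal origin with amplified ERBB2. The cells had been stably transfected with the plasmid pcDNA3.1/V5/His-pTOPO carrying the cDNA of TFPIα, carrying that of TFPIβ, or empty, and all 3 groups had passed through drug selection, for which the labels name puromycin and the methods neomycin. Each group was 1 stable line kept as a pool of transfected cells, with 3 biological replicates by the labels and in all 9 Affymetrix Human Gene 1.0 ST arrays. Since replicates of a group came from the same stable line, the p-values measure the spread between RNA samples of that line and not between independent transfections.

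The arrays had nearly equal median log2 signals, between 4.78 and 4.88. ERBB2 had a log2 signal between 5.63 and 6.24, and the luminal keratins KRT8 and KRT19 lay between 5.68 and 6.20 and between 4.64 and 5.25, whereas the basal keratins KRT5 and KRT14 lay between 12.40 and 12.83 and between 11.99 and 12.74. KRT18, another luminal keratin, lay between 9.49 and 10.76. Other markers of such a line were also low: GRB7 lay between 5.04 and 5.30, GATA3 between 4.86 and 5.82 and FOXA1 between 4.64 and 5.13. ERBB3 and TFAP2B reached at most 3.76 and 3.86. These markers, with ERBB2, KRT8, KRT19 and the bright KRT5 and KRT14, go against a luminal line with amplified ERBB2. KRT18 does not, and the groups are called by their labels. TFPI had log2 signals of 5.51 to 5.81 in the arrays labelled TFPIα, 5.55 to 5.81 in those labelled TFPIβ and 5.81 to 6.48 in those labelled empty vector. By the study's account the transfected cDNA held the coding region without the untranslated regions that array probes for TFPI recognise, so this signal is no clear check of the overexpression. The study reports raised TFPI mRNA and protein in both lines by other measurements, which were not analysed here. How many of the probes lie in the coding region was not analysed here.

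Glycolysis turns glucose into pyruvate in the cytosol, and lactate dehydrogenase can turn the pyruvate into lactate, which keeps the pathway running without oxygen. When oxygen is low, prolyl hydroxylases no longer mark HIF-1α and HIF-2α for breakdown, and the stabilised subunits pair with ARNT and bind short elements near genes of glucose uptake, glycolysis, angiogenesis and pH control. Many tumour cells run glycolysis at a high rate even with oxygen present, and poorly perfused regions of solid tumours express many HIF targets.

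ACGTG is a form of the core of the element that HIF binds, and it is called the core below. Other forms were not searched. RefSeq promoters (GRCh38.p14, 250 bases before to 50 bases after each start) were searched for ACGTG on both strands. It was present in 7518 of 35116 promoters (21.4%), and in 22 of 56 promoters of measured members (39.3%). With the window limited to the 250 bases before the start, the core was in 6501 of 35116 promoters (18.5%). It was in 21 of 56 promoters of measured members (37.5%). Counted by gene, 18 of the 32 measured genes with a promoter given had at least 1 core there. The share by gene over all genes was not analysed here. A gene with several promoters has more chances of a match, and ACGTG is also part of CACGTG, the E-box that MYC and other factors bind. The windows below are shown because these members have the values on which the results turn. Each is written 5′ to 3′ on the strand of the gene, with the core in capitals, and CACGT in capitals is the core read on the other strand:
HK2, chr2:74834966-74834990, + strand, 194 to 190 bases before a start, within CACGTG: ttgctgcgccCACGTgggagggagc
GPI, chr19:34364820-34364844, + strand, 162 to 158 bases before a start: actgcctgtaACGTGgaaggtgttc
TPI1, chr12:6868078-6868102, + strand, 17 to 13 bases before a start: tgcgccgccgCACGTagccccagac
PGK1, chrX:78104036-78104060, + strand, 202 to 198 bases before a start: ggcgtgccggACGTGacaaacggaa
LDHA, chr11:18394369-18394393, + strand, 184 to 180 bases before a start, within CACGTG: ctcccagcgcACGTGgagcagtctg
PDK1, chr2:172556063-172556087, + strand, 17 to 13 bases before a start: tgctgcccgcCACGTccctcacgta
ALDOC, chr17:28577120-28577144, - strand, 239 to 235 bases before a start, within CACGTG: agtgcccggcACGTGgtaaagggat
A match to these 5 letters is a description of the sequence and not evidence of binding. ACGTG, the only form of the core searched, was absent from the promoters given for CA12, KDM3A, EGLN3, HIF1A, EPAS1, ADM and P4HA2. The same held for ENO1, PKM, PFKL, LDHB, HK1, PFKFB4 and SLC2A1. By promoter, the core was in 17 of 42 (40.5%) of the measured glycolysis and lactate members. In the measured hypoxia members it was in 5 of 14 (35.7%).

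No member passed the test in any comparison of the groups. A probe set was called if limma gave an adjusted p under 0.05 (Benjamini-Hochberg, over all 17482 probe sets that reached a log2 signal of 5) and the means differed by at least 2-fold, a log2 difference of 1. In TFPIα against empty vector 0 of 36 members were called, against 1 of 17482 probe sets (0.00572%). With the TFPIβ label, compared with empty vector or with TFPIα, the calls were 0 of 36 members and 0 of 17482 probe sets (0%). The lowest adjusted p of a member by limma was 0.335, 1.00 and 0.532 in the 3 comparisons, and the log2 differences of the members lay between -0.68 and 0.61, -0.57 and 0.25, and -0.60 and 0.38. A difference of 2-fold or more was reached by 0 members in each, against 1.71%, 0.395% and 1.06% of all probe sets. RNA was measured in bulk, so fewer cells of a type and less RNA per cell cannot be told apart.

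At an unadjusted p under 0.05 by limma, 6 of 36 members (16.7%) differed between TFPIα and empty vector, against 14.2% of all probe sets. Of these HK2, CA12 and KDM3A were lower (8.33%, against 5.58%) and GPI, TPI1 and PKM higher (8.33%, against 8.59%). For TFPIβ against empty vector these were HK2 and CA12, both lower, 5.56% of the members against 4.72% of all probe sets (2.23% lower and 2.49% higher). For TFPIβ against TFPIα they were TPI1 and EGLN3, both lower with TFPIβ, 5.56% against 8.63% (4.7% lower and 3.94% higher). These shares of the members rest on 2 to 6 genes. With the replicate number as a block the counts were 12 (33.3%, against 20.3% of all probe sets), 4 (11.1%, against 7.16%) and 5 (13.9%, against 15.4%), and 0 members were called in each.

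**Figure D1:**
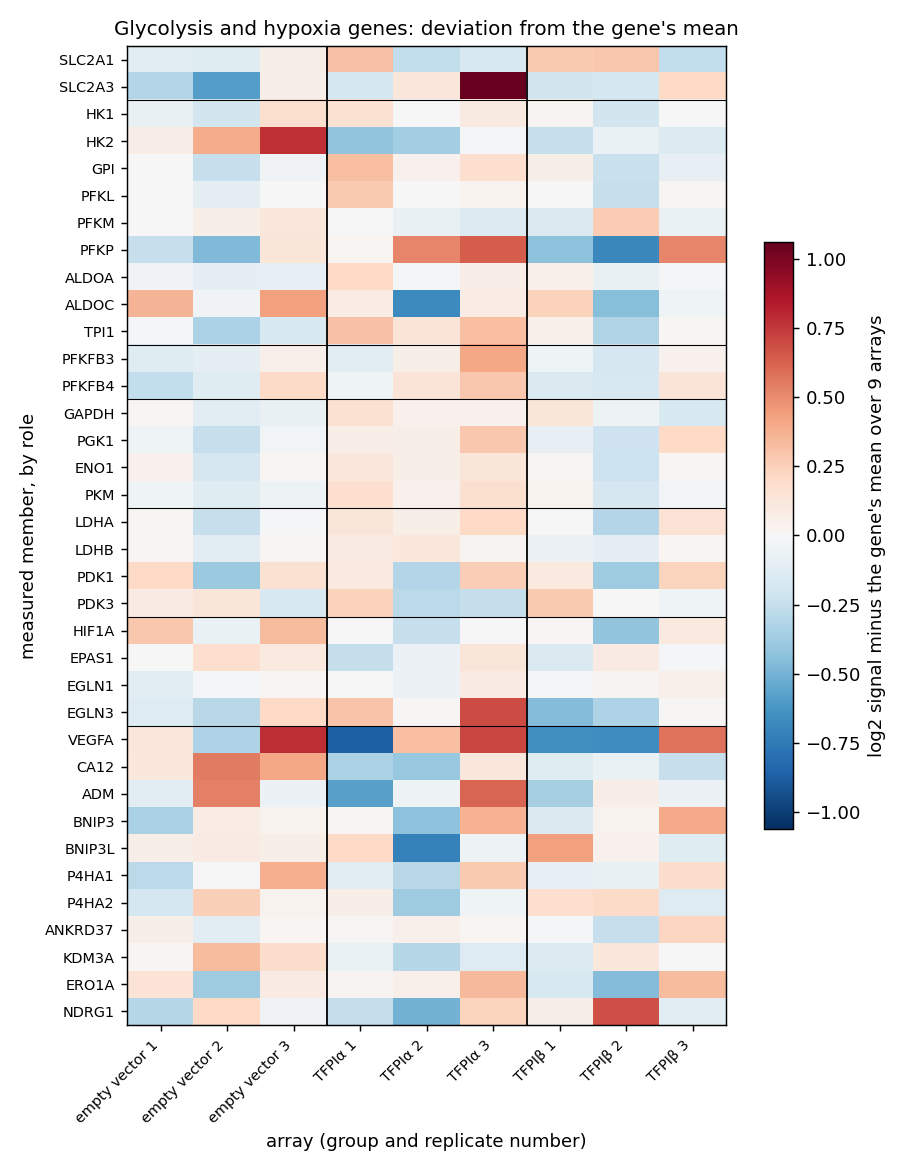
Log2 signal of each measured member (rows, ordered by role) in each of the 9 arrays (columns, by label), as the difference from that member's mean over the 9 arrays (colour, log2 units). The rows of glycolytic enzymes such as TPI1, GPI, PKM and ENO1 are on average highest in the columns labelled TFPIα, and many rows change with the replicate number within each group, with no member called in any comparison.

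As a group, the members were spread around no difference. In TFPIα against empty vector 22 members had a positive and 14 a negative log2 difference, with a median of 0.05, where 50% of all probe sets were higher. In TFPIβ against empty vector the counts were 17 and 19 and the median was -0.0028, where 50.5% were higher. In TFPIβ against TFPIα the counts were 14 and 22 and the median was -0.11, where 49.7% were higher. Without single arrays the first of these medians ranged from 0.04 to 0.15 (the highest without TFPIα replicate 2). The second ranged from -0.06 to 0.06, on both sides of 0 (highest without TFPIβ replicate 2, lowest without TFPIβ replicate 3). The third ranged from -0.14 to -0.00013 (the last without TFPIα replicate 3). The mean log2 signal over the 36 members was 8.52, 8.41 and 8.71 in replicates 1, 2 and 3 of TFPIα, 8.46, 8.38 and 8.57 in those of TFPIβ and 8.48, 8.45 and 8.63 in those of empty vector. The ranges of the 3 groups overlapped, and in each group replicate 2 had the lowest and replicate 3 the highest mean.

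In TFPIα against empty vector the medians of the glycolysis members and of the hypoxia members lay on different sides of 0. Each list held members of both signs, and HIF also induces some glycolysis members, such as LDHA. Of the 21 measured members of glucose uptake, glycolysis, lactate and pyruvate control, 17 had a positive log2 difference, with a median of 0.14, whereas of the 15 measured HIF subunits, prolyl hydroxylases and other hypoxia-induced members 5 did, with a median of -0.13. For TFPIβ against empty vector the same medians were 0.0016 and -0.05, and for TFPIβ against TFPIα they were -0.17 and 0.03. These are descriptions of lists chosen by function, and the difference between the lists was not tested. In TFPIα against empty vector, the arrays of the groups did not overlap for 10 higher members (27.8%, against 14.4% of all probe sets), all of them glycolytic enzymes or lactate dehydrogenases: GPI, PFKL, ALDOA, TPI1, GAPDH, PGK1, ENO1, PKM, LDHA and LDHB. These are bright genes, from percentile 73.6 (PFKL) to 99.98 (GAPDH) of mean signal among the 11233 genes. The share over genes of like signal was not analysed here. The arrays did not overlap for 2 lower members, HK2 and KDM3A (5.56%, against 8.85%). For TFPIβ against empty vector these counts were 0 higher (0%, against 3.43%) and 2 lower, HK2 and CA12 (5.56%, against 3.74%). For TFPIβ against TFPIα they were 0 higher (0%, against 6.15%) and 4 lower, TPI1, ENO1, PKM and LDHB (11.1%, against 7.1%). With arrays centred on their medians, an alternative chosen after the data were seen, the lower members there numbered 10 (27.8%, against 9.84% of all probe sets). In that setting TFPIα against empty vector kept 10 higher members (27.8%), against 17.7% of all probe sets in place of 14.4%. It kept 2 lower members (5.56%, against 7.45%). Within replicate numbers, 15 members were higher with TFPIα than with empty vector in all 3 (41.7%, against 22.6% of all probe sets) and 5 lower (13.9%, against 18.7%), which were HK2, ALDOC, HIF1A, CA12 and KDM3A. For TFPIβ against empty vector these counts were 4 (11.1%, against 12.5%) and 9 (25%, against 13.2%), and for TFPIβ against TFPIα they were 1, PDK3 (2.78%, against 20.1%), and 17 (47.2%, against 22.9%).

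**Figure D2:**
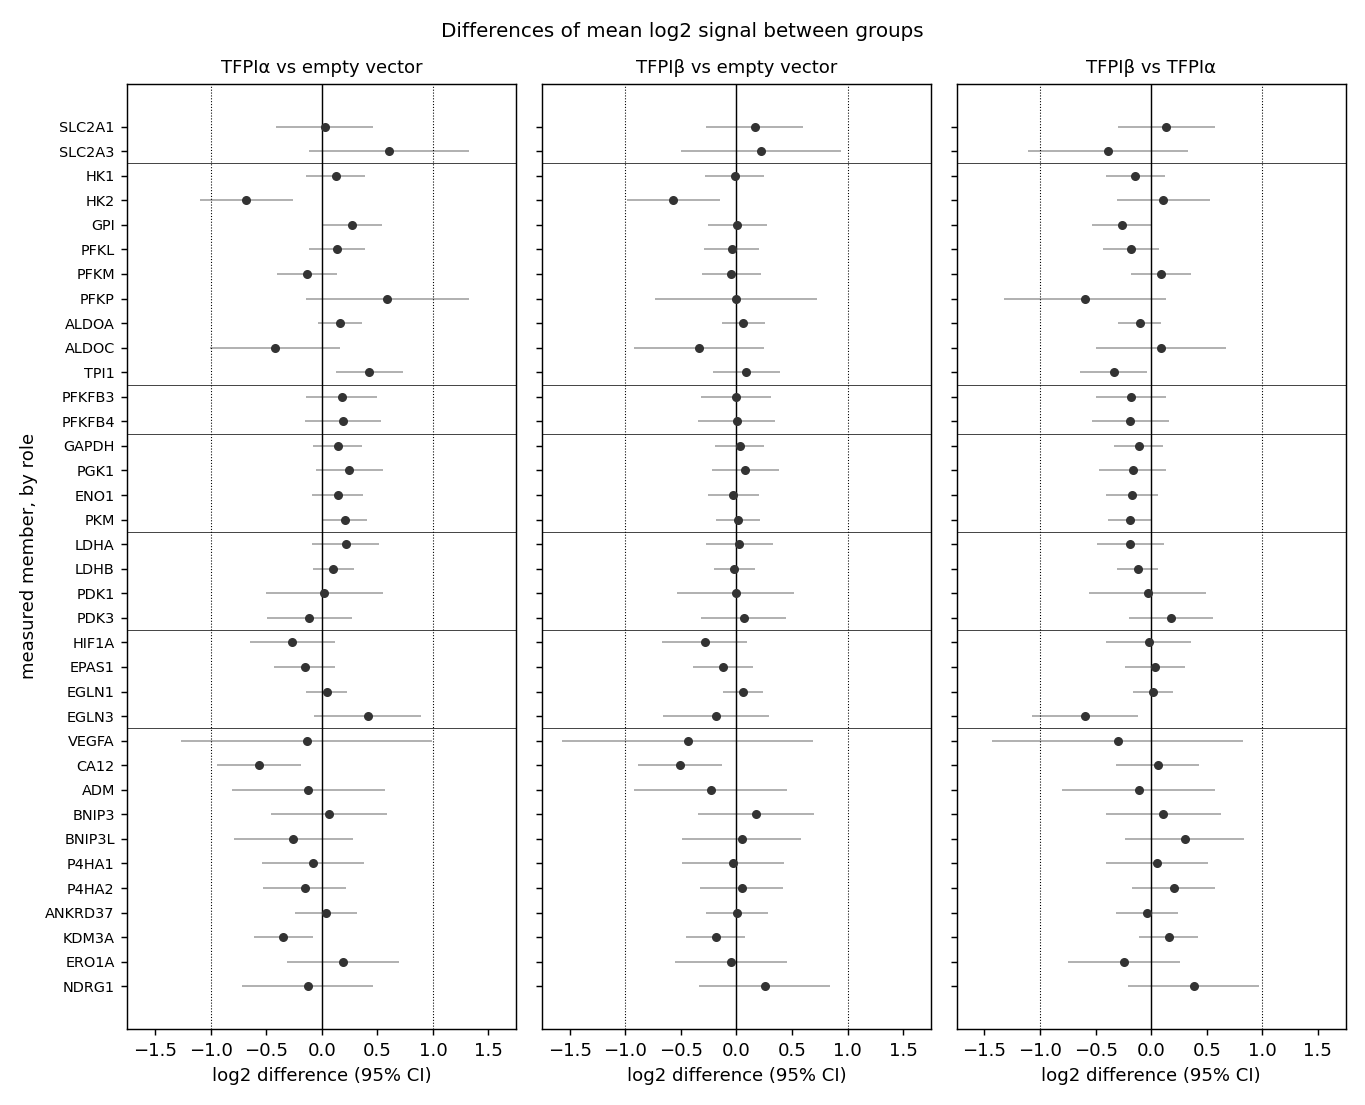
Log2 difference of each measured member with its 95% confidence interval from limma, for each pair of groups (1 panel each: both isoforms against empty vector, then the isoforms against each other, members ordered by role). HK2 lies at -0.68 and -0.57 in the first and second panel, TPI1 at 0.43, 0.09 and -0.34 in the 3 panels, and no member reaches a log2 difference of 1 or an adjusted p under 0.05.

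Among the glucose transporters, SLC2A1 (GLUT1), the basal transporter of most cells, had log2 signals of 9.36, 9.34 and 9.54 with the empty vector label, 9.78, 9.21 and 9.32 with the TFPIα label and 9.75, 9.76 and 9.21 with the TFPIβ label. The groups overlapped, and the arrays at 9.75 or above were TFPIα replicate 1 and TFPIβ replicates 1 and 2. The log2 differences from empty vector were 0.02 and 0.16 (standard error 0.19, adjusted p = 0.964 and 1.00 by limma). In TFPIα against empty vector the sign turned without TFPIα replicate 1 (-0.15, the lowest), empty vector replicate 1 or empty vector replicate 2. SLC2A3 (GLUT3), a transporter with high affinity for glucose, had log2 signals of 4.88, 4.60 and 5.25 with empty vector, 5.00, 5.31 and 6.25 with TFPIα and 5.00, 5.00 and 5.40 with TFPIβ. TFPIα replicate 3 stood above all the others, and several of the other arrays lay below the filter of 5. Its log2 differences from empty vector were 0.61 and 0.22 (standard error 0.31, adjusted p = 0.396 and 1.00 by limma).

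HK2, the inducible hexokinase that traps glucose in the cell as glucose 6-phosphate, had the largest log2 difference in size of any member in each comparison with empty vector, and it was lower. Its log2 signals were 8.63, 8.96 and 9.33 with empty vector, 8.14, 8.20 and 8.55 with TFPIα and 8.32, 8.49 and 8.41 with TFPIβ. All 6 arrays with a TFPI label lay below all 3 arrays labelled empty vector. The log2 difference was -0.68 for TFPIα (95% confidence interval -1.10 to -0.26, adjusted p = 0.335 by limma) and -0.57 for TFPIβ (-0.98 to -0.15, adjusted p = 1.00 by limma), and the comparisons used the same empty vector arrays. HK1, the hexokinase of most tissues, had log2 differences of 0.12 and -0.02, and its 9 arrays lay between 7.82 and 8.19.

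Most enzymes that follow hexokinase in the upper pathway had the opposite sign to HK2 in TFPIα against empty vector. GPI, which turns glucose 6-phosphate into fructose 6-phosphate, had log2 signals of 10.07, 9.82 and 10.03 with empty vector, 10.38, 10.11 and 10.24 with TFPIα and 10.13, 9.83 and 9.98 with TFPIβ. All arrays with the TFPIα label lay above those with empty vector, with a log2 difference of 0.27 (standard error 0.12, adjusted p = 0.349 by limma), and the TFPIβ arrays overlapped with both groups, at 0.0092 from empty vector and -0.26 from TFPIα. Phosphofructokinase, which commits sugar to glycolysis, is made from 3 kinds of subunit. Its platelet-type subunit PFKP had log2 signals of 7.58, 7.36 and 7.96 with empty vector, 7.85, 8.34 and 8.47 with TFPIα and 7.40, 7.14 and 8.35 with TFPIβ. TFPIα replicates 2 and 3 and TFPIβ replicate 3 were the highest, and the log2 differences were 0.59, -0.0015 and -0.59 in the 3 comparisons (standard error 0.32, lowest adjusted p = 0.409 by limma). The liver-type subunit PFKL differed by 0.14 between TFPIα and empty vector without overlap, and the muscle-type subunit PFKM by -0.14 with overlap.

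TPI1, the isomerase that links the products of aldolase, had the largest positive log2 difference among the members at an unadjusted p under 0.05 in TFPIα against empty vector. It had log2 signals of 10.75, 10.42 and 10.60 with empty vector, 11.07, 10.90 and 11.08 with TFPIα and 10.82, 10.44 and 10.78 with TFPIβ. The TFPIα arrays lay above all others, with log2 differences of 0.43 from empty vector (95% confidence interval 0.12 to 0.73, adjusted p = 0.335 by limma) and -0.34 for TFPIβ against TFPIα (-0.64 to -0.03, adjusted p = 0.532 by limma). A second probe set of TPI1 had 0.49 and -0.33 in these comparisons. Of the aldolases, which split fructose 1,6-bisphosphate, ALDOA had 0.17 between TFPIα and empty vector, and ALDOC, the brain-type enzyme, had the opposite sign. ALDOC had log2 signals of 7.30, 6.90 and 7.37 with empty vector, 7.01, 6.26 and 7.01 with TFPIα and 7.18, 6.48 and 6.89 with TFPIβ. In each group replicate 2 was the lowest array and the groups overlapped, with log2 differences from empty vector of -0.42 and -0.34 (standard error 0.25, adjusted p = 0.446 and 1.00 by limma).

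PFKFB3 and PFKFB4 make fructose 2,6-bisphosphate, the activator of phosphofructokinase. PFKFB4 had log2 signals of 5.09, 5.22 and 5.55 with empty vector, 5.31, 5.49 and 5.63 with TFPIα and 5.20, 5.18 and 5.49 with TFPIβ. Replicate 3 was the highest array in each group, and the groups overlapped. The log2 differences of TFPIα from empty vector were 0.19 for PFKFB4 and 0.18 for PFKFB3, and those of TFPIβ were 0.0016 and -0.0042.

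Each of the 4 measured enzymes of the lower pathway, GAPDH, PGK1, ENO1 and PKM, had a positive log2 difference in TFPIα against empty vector and a negative one in TFPIβ against TFPIα. GAPDH, which makes the pathway's NADH, had log2 signals of 12.90, 12.78 and 12.81 with empty vector, 13.05, 12.94 and 12.93 with TFPIα and 13.02, 12.84 and 12.73 with TFPIβ. PGK1, the kinase of the pathway's first ATP-forming step, had log2 signals of 10.60, 10.40 and 10.62 with empty vector, 10.71, 10.71 and 10.93 with TFPIα and 10.56, 10.43 and 10.86 with TFPIβ. For both genes the TFPIα arrays lay above the empty vector arrays by small margins, and the TFPIβ arrays overlapped with both groups. The log2 differences between TFPIα and empty vector were 0.14 for GAPDH (standard error 0.10, adjusted p = 0.491 by limma) and 0.25 for PGK1 (standard error 0.13, adjusted p = 0.405 by limma). Those between TFPIβ and empty vector were 0.03 and 0.08, and their signs turned without TFPIβ replicate 1 for GAPDH (-0.050) and without TFPIβ replicate 3 for PGK1 (-0.044).

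ENO1, the enolase that precedes pyruvate kinase, had log2 signals of 12.71, 12.49 and 12.69 with empty vector, 12.79, 12.73 and 12.80 with TFPIα and 12.68, 12.44 and 12.69 with TFPIβ. PKM, the pyruvate kinase that ends the pathway, had log2 signals of 11.12, 11.03 and 11.11 with empty vector, 11.34, 11.21 and 11.33 with TFPIα and 11.19, 10.98 and 11.13 with TFPIβ. In both genes all 3 TFPIα arrays lay above the 6 others. The log2 differences of TFPIα from empty vector were 0.14 for ENO1 (standard error 0.10, adjusted p = 0.510 by limma) and 0.21 for PKM (standard error 0.09, adjusted p = 0.347 by limma), and those of TFPIβ from TFPIα were -0.17 and -0.19 (adjusted p = 0.543 and 0.532 by limma). ENO2, the neuronal enolase, had a log2 signal under 5 in every array and was left out, and PGAM1, the mutase between PGK1 and enolase, was measured only by 5 probe sets that also carry the symbol of its near-identical copy PGAM4.

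**Figure D3:**
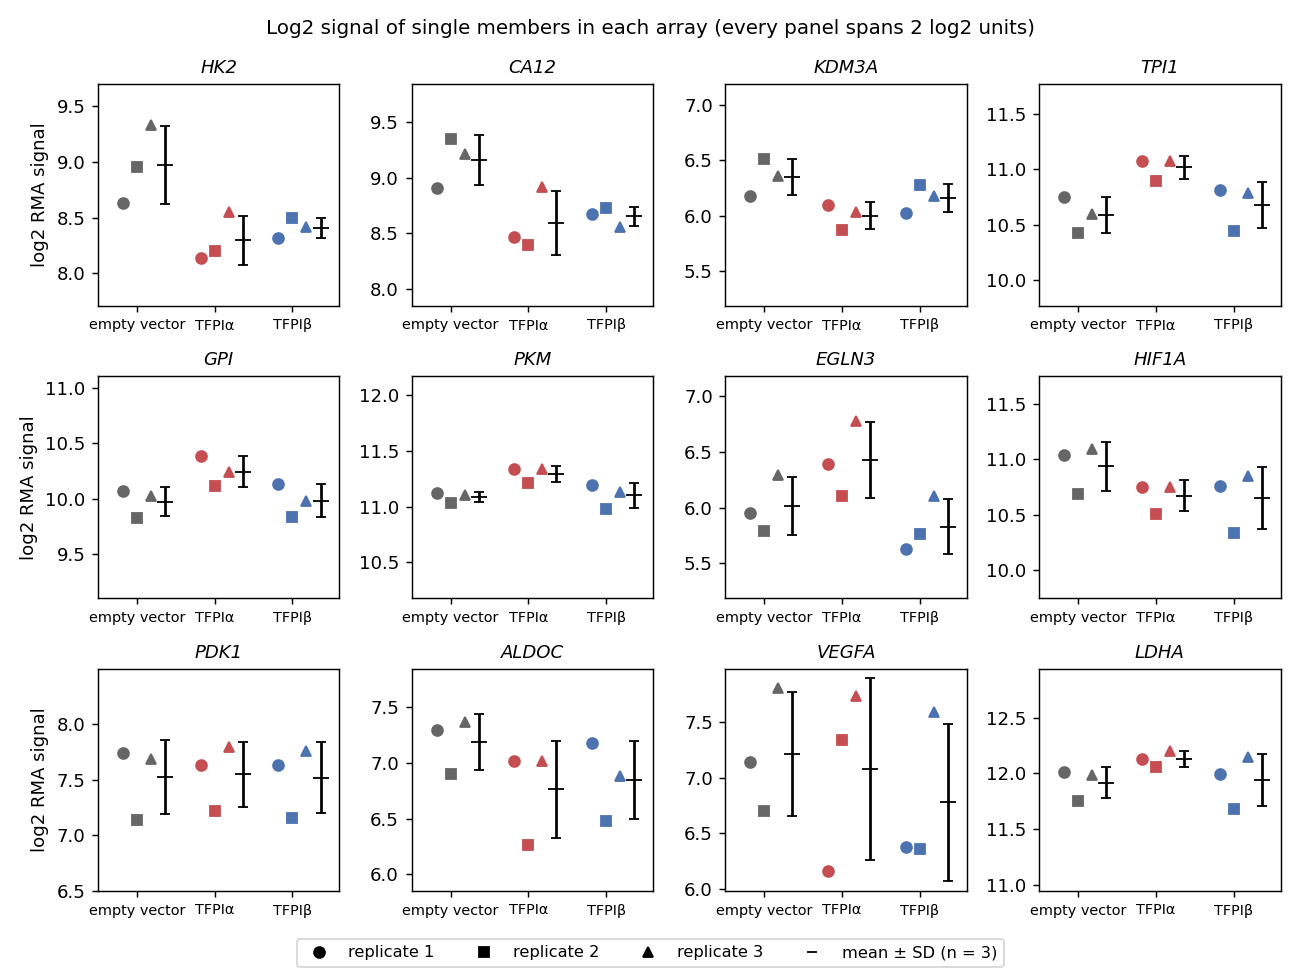
Log2 signal (vertical axis) of single members in each of the 9 arrays, grouped by label (horizontal axis), with points marked by replicate number and black bars for the group mean ± SD (n = 3). The 3 TFPIα arrays of TPI1, between 10.90 and 11.08, lie above the 6 others, and the 3 empty vector arrays of HK2, between 8.63 and 9.33, lie above the 6 others.

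In the branch to lactate, LDHA, the lactate dehydrogenase subunit that HIF induces, had log2 signals of 12.01, 11.75 and 11.98 with empty vector, 12.13, 12.06 and 12.20 with TFPIα and 11.99, 11.68 and 12.15 with TFPIβ. The TFPIα arrays lay above those of empty vector, and TFPIβ overlapped with both. The log2 differences from empty vector were 0.21 and 0.03 (standard error 0.13, adjusted p = 0.456 and 1.00 by limma), and that of TFPIβ turned sign without TFPIβ replicate 1, TFPIβ replicate 3 (-0.077, the lowest) or empty vector replicate 2. LDHB, the subunit that favours the reverse reaction, had 0.10 and -0.02. PDK1 and PDK3 are kinases that switch off pyruvate dehydrogenase and so keep pyruvate out of the mitochondria. PDK1 had log2 signals of 7.74, 7.14 and 7.69 with empty vector, 7.63, 7.22 and 7.79 with TFPIα and 7.63, 7.16 and 7.76 with TFPIβ. Its log2 differences between groups were 0.02, -0.0083 and -0.03, while replicate 2 was the lowest array of each group. PDK3 had log2 differences from empty vector of -0.11 and 0.06. The lactate carriers SLC16A1 and SLC16A3 are also on the list, but no probe set carried their symbols in the annotation used here, and they were not analysed here.

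The 13 measured enzymes from hexokinase to pyruvate kinase, averaged, had a log2 signal of 9.58, 9.44 and 9.67 in replicates 1, 2 and 3 of empty vector, 9.69, 9.56 and 9.72 in those of TFPIα and 9.55, 9.37 and 9.59 in those of TFPIβ. The groups overlapped, and the TFPIα array was the highest of its replicate number each time. The median log2 difference of the 13 enzymes was 0.14 for TFPIα and -0.0015 for TFPIβ against empty vector, and -0.17 for TFPIβ against TFPIα. Without single arrays it ranged from 0.10 to 0.19, from -0.07 to 0.05 and from -0.21 to -0.09. A list of 17 proliferation genes moved in part alongside: its mean log2 signal was 7.94, 6.95 and 7.84 with empty vector, 8.68, 8.83 and 8.87 with TFPIα and 7.81, 6.57 and 8.87 with TFPIβ. Replicate 2 was the lowest array of both lists in empty vector and TFPIβ but not of the proliferation list in TFPIα. The part of proliferation in the enzyme values was not tested.

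**Figure D4:**
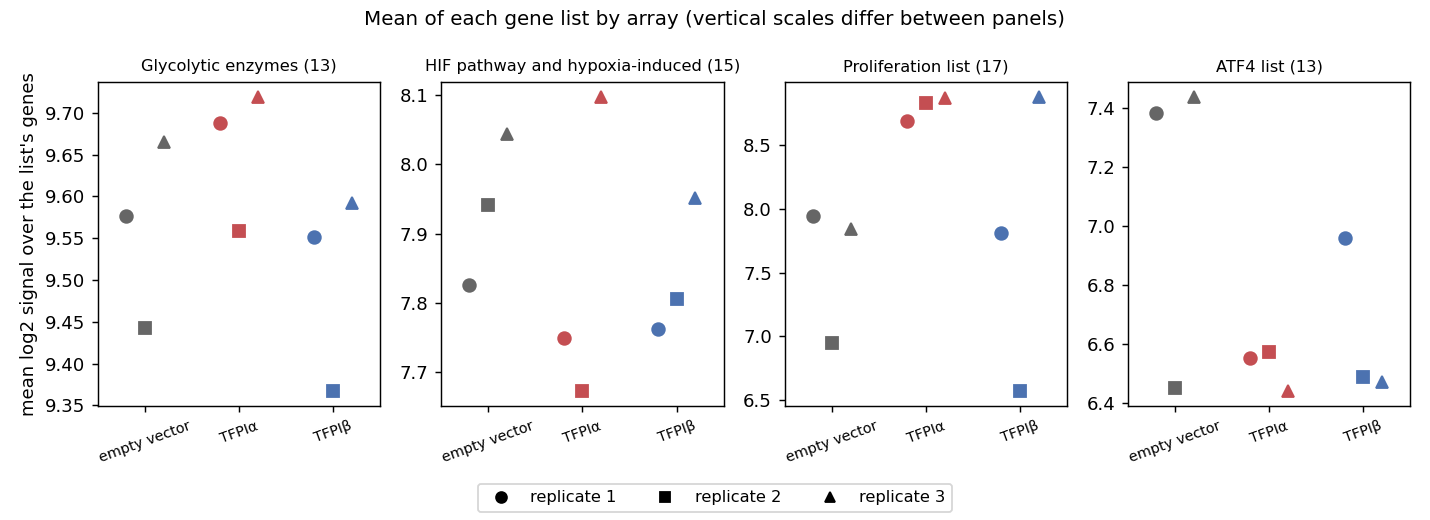
Mean log2 signal (vertical axis, with its own scale in each panel) of 13 glycolytic enzymes, 15 HIF and hypoxia-induced members, 17 proliferation genes and 13 targets of ATF4 in each of the 9 arrays, grouped by label (horizontal axis) and marked by replicate number. The enzyme mean of TFPIα lies between 9.56 and 9.72 against 9.44 to 9.67 with empty vector, and the proliferation mean between 8.68 and 8.87 against 6.95 to 7.94.

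HIF1A encodes HIF-1α, the subunit that drives most glycolytic targets, although its control by oxygen is on the protein and not on the mRNA measured here. It had log2 signals of 11.04, 10.68 and 11.09 with empty vector, 10.75, 10.51 and 10.75 with TFPIα and 10.76, 10.34 and 10.85 with TFPIβ. Within each replicate number both TFPI arrays lay below the empty vector array, with log2 differences between -0.17 and -0.35, while the groups as a whole overlapped through replicate 2. The log2 differences were -0.27 and -0.29 (standard error 0.17, adjusted p = 0.459 and 1.00 by limma, with the replicate block 0.201 and 0.583). EPAS1, which encodes HIF-2α, had log2 signals of 7.90, 8.08 and 8.01 with empty vector, 7.65, 7.84 and 8.03 with TFPIα and 7.75, 7.99 and 7.89 with TFPIβ. Its groups overlapped, with log2 differences of -0.15 and -0.12 (standard error 0.12, adjusted p = 0.546 and 1.00 by limma). Between the isoforms HIF1A and EPAS1 differed by -0.02 and 0.03, with ranges of -0.12 to 0.14 and -0.064 to 0.13 without single arrays. The sign of HIF1A turned without TFPIα replicate 1, TFPIα replicate 3 or TFPIβ replicate 2, and that of EPAS1 without TFPIα replicate 1 or TFPIβ replicate 2.

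The prolyl hydroxylases EGLN1 (PHD2) and EGLN3 (PHD3) mark HIF-α for breakdown, and EGLN3 is itself a HIF target. EGLN3 had log2 signals of 5.95, 5.79 and 6.30 with empty vector, 6.39, 6.10 and 6.78 with TFPIα and 5.63, 5.76 and 6.10 with TFPIβ. The TFPIα array was the highest of its replicate number each time, and the groups overlapped, with replicate 3 the highest array of each. The log2 difference was 0.41 between TFPIα and empty vector (adjusted p = 0.390 by limma) and -0.60 between TFPIβ and TFPIα (95% confidence interval -1.07 to -0.12, adjusted p = 0.532 by limma), the largest in size of any member in the latter comparison. EGLN1 had log2 differences of 0.04 and 0.06 from empty vector, and its 9 arrays lay between 7.53 and 7.73.

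Of the other hypoxia-induced members, CA12, a membrane carbonic anhydrase that controls pH at the cell surface, had log2 signals of 8.91, 9.35 and 9.22 with empty vector, 8.46, 8.40 and 8.92 with TFPIα and 8.67, 8.73 and 8.56 with TFPIβ. The TFPIβ arrays lay below all empty vector arrays, and TFPIα replicate 3 reached the lowest of them. The log2 differences were -0.57 for TFPIα (95% confidence interval -0.94 to -0.19, adjusted p = 0.335 by limma) and -0.51 for TFPIβ (-0.88 to -0.13, adjusted p = 1.00 by limma), again against the same empty vector arrays. KDM3A, a histone demethylase induced by HIF, had log2 signals of 6.18, 6.51 and 6.36 with empty vector, 6.10, 5.87 and 6.04 with TFPIα and 6.03, 6.28 and 6.18 with TFPIβ. Its TFPIα arrays lay below those of empty vector, with a log2 difference of -0.35 (standard error 0.12, adjusted p = 0.335 by limma), and that of TFPIβ was -0.19 with overlap. CA9, the carbonic anhydrase most used as a marker of hypoxia, is also on the list, but no probe set carried its symbol in the annotation used here, and it was not analysed here.

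VEGFA, the growth factor of blood vessels, was the member with the widest spread over the arrays. It had log2 signals of 7.14, 6.70 and 7.80 with empty vector, 6.16, 7.34 and 7.73 with TFPIα and 6.37, 6.36 and 7.60 with TFPIβ. Replicate 3 was the highest array of each group, and the groups overlapped over almost their whole range. The log2 differences from empty vector were -0.14 and -0.44 (standard error 0.49, adjusted p = 0.916 and 1.00 by limma), the former turning sign without TFPIα replicate 1 (0.32, the highest) or empty vector replicate 3. The difference between the isoforms, -0.30, turned sign without TFPIα replicate 3 (0.027).

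The remaining hypoxia-induced members had log2 differences from empty vector between -0.26 and 0.19 for TFPIα and between -0.23 and 0.25 for TFPIβ, with overlapping groups for each of them. They were ADM, a vasodilator peptide, BNIP3 and BNIP3L, which start mitophagy, P4HA1 and P4HA2, the collagen prolyl hydroxylases, ANKRD37, ERO1A, an oxidase of disulphide formation, and NDRG1, a stress-induced protein. BNIP3L had -0.26 and 0.05, with TFPIα replicate 2 lowest of the 9 arrays at 6.88. NDRG1 had -0.13 and 0.25, and 0.38 between the isoforms, the highest of any member there, with TFPIβ replicate 2 at 10.30 and all other arrays between 9.12 and 9.86.

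Members also varied with the replicate number, though none passed the test. In a model with group and replicate number, limma's F test for the number called 0 of 36 members and 0 of 17482 probe sets (0%) at an adjusted p under 0.05, and at an unadjusted p under 0.05 it gave 16 of 36 members (44.4%) against 16% of all probe sets. PDK1 ranked first among the members, with means of 7.67, 7.17 and 7.75 over replicates 1, 2 and 3 (adjusted p = 0.154 by limma). ALDOC followed with 7.16, 6.55 and 7.09 (adjusted p = 0.188 by limma), then EGLN3 with 5.99, 5.88 and 6.39, HIF1A with 10.85, 10.51 and 10.90, PFKFB4 with 5.20, 5.30 and 5.56 and SLC2A3 with 4.96, 4.97 and 5.63 (adjusted p from 0.212 to 0.242 by limma). VEGFA had the widest range, from 6.56 to 7.71. Replicate 1 against the mean of replicates 2 and 3 called 0 members, and at an unadjusted p under 0.05 it was higher for GPI, ALDOC, TPI1, PDK1 and PDK3 (13.9%, against 8.39% of all probe sets) and lower for HK2, PFKFB4, EPAS1, VEGFA, ADM and P4HA1 (16.7%, against 5.09%).

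Some members were low in replicate 2 or high in replicate 3 in every group, and PGK1 and HIF1A were both. Replicate 2 was the lowest array of every group for 12 members (33.3%, against 7.93% of all probe sets): HK1, GPI, PFKL, ALDOA, ALDOC, TPI1, PGK1, ENO1, PKM, LDHA, PDK1 and HIF1A, all but HIF1A genes of glycolysis, lactate or pyruvate control. Replicate 3 was the highest array of every group for 10 members (27.8%, against 6.58%): SLC2A3, PFKP, PFKFB3, PFKFB4, PGK1, HIF1A, EGLN1, EGLN3, VEGFA and P4HA1. Replicate 1 was the lowest for HK2, EPAS1 and ADM (8.33%, against 5.88%) and the highest for GPI, ALDOA, GAPDH and PKM (11.1%, against 10.4%). Replicate 2 was the highest, and replicate 3 the lowest, array of every group for 0 members (against 4.32% and 8.3%). Genes that vary together are not independent, so these shares count fewer separate observations than their number of members. All probe sets include 4494 without a symbol, and the shares over genes of like signal were not analysed here. The labels do not say what a replicate number shares across groups, and its part in the members' values beyond this was not tested.

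Of 12 measured genes of the HIF system outside the members (15 listed), 0 were called and the median log2 difference was -0.02 for TFPIα and -0.05 for TFPIβ against empty vector. ELOC, the elongin C of the ubiquitin ligase that degrades HIF-α, had 0.69 and 0.61 (adjusted p = 0.335 and 1.00 by limma), and CUL2, the cullin of that ligase, had 0.39 for TFPIα. Of 30 measured other hypoxia targets (39 listed) 0 were called, with medians of -0.05 and -0.06. IGFBP3, which binds insulin-like growth factors, had the largest differences of that list, 1.20 and 0.77 (adjusted p = 0.289 and 0.998 by limma). Of 20 measured other enzymes and carriers of glycolysis and pyruvate (36 listed) 0 were called, with medians of 0.05 and 0.04 and with BPGM, a red cell mutase, at 0.38 and 0.05.

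Downstream of the pathway, a list held genes of the tricarboxylic acid cycle together with cytosolic forms of its enzymes. Of its 17 measured genes (20 listed) 0 were called, with medians of 0.08 and 0.05. IDH3A, a subunit of NAD-dependent isocitrate dehydrogenase, had 0.40 and 0.23, and ACO1, the cytosolic aconitase, had -0.59 and -0.83 (adjusted p = 0.335 and 0.665 by limma). Of 6 measured genes of the MYC network (7 listed) 0 were called, and TXNIP, which restrains glucose uptake, had -1.48 and -0.43 (adjusted p = 0.339 and 1.00 by limma). The 13 targets of ATF4, the factor of the amino acid and stress response, had medians of -0.59 and -0.40 with 0 called, and the 17 proliferation genes had 1.24 and 0.23 with 0 called. Markers of cells other than breast epithelium were at hand for fibroblasts (3 of 5), endothelium (1 of 4) and leukocytes (1 of 4), with 0 called. Of the fibroblast genes, DCN, a proteoglycan with log2 signals of 9.48 to 11.14, had log2 differences of -0.90 and -1.26. COL1A1, a collagen with signals of 6.18 to 7.72, had -0.80 and -0.08. LUM, another proteoglycan, had 0.38 and 0.32, but its signals went down to 2.82 and reached 5 only in TFPIα replicate 3 (5.19). Their part in the members' values was not tested.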

How the data were processed

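Total RNA of 9 samples was hybridised to Affymetrix Human Gene 1.0 ST arrays. The authors summarised the probes into 1 log2 signal per transcript cluster with RMA in Partek software of no given version, and these signals were deposited. RMA makes the distributions of the arrays alike and draws small differences at low signal towards 0. No source gives the base of the logarithm, and base 2 was taken from the values' range. All 33297 probe sets were deposited unfiltered, and all 9 columns were used.

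Probe sets whose highest log2 signal was at least 5 (17482) were fitted in limma 3.58.1 under R 4.3.3 (lmFit, eBayes, one-way model over 3 groups). The one-way model and the signal threshold of 5 were taken from the study's methods, though the number of probe sets left here differs from the number stated there. Calls needed an adjusted p under 0.05 by the Benjamini-Hochberg method together with a 2-fold difference. An F test and a contrast for the replicate number came from a model with group and number. Permutation was not used, since 3 against 3 arrays give no exact p under 0.1. Gene symbols of the platform annotation were updated through RefSeq; of the 17482 probe sets 11838 carried 1 symbol, 1150 several and 4494 none. The fits were tested on simulated data. The number of arrays limits the precision.

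Replicates carry numbers 1 to 3 in the labels of every group. Between arrays of different groups, deviations from group means correlated at 0.137 to 0.594 where the number was shared (9 pairs). Where it was not, they correlated at -0.512 to 0.266 (18 pairs). The ranges overlap, and 8 of the 9 arrays were closest to an array with their own number. The numbers thus pair the arrays only in part by the data. The labels do not say what a number shares.

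The members and the other lists were chosen with earlier results of these data known. Values in every array are given for the up to 6 members with the smallest p in each comparison and F test and for HIF1A, EPAS1, VEGFA, SLC2A1, LDHA, PGK1 and GAPDH, and up to 3 genes of each other list by p. Alternatives were other call rules, unmoderated variances, fits of the compared groups alone, no filter or one at 6, centred arrays, a trended and robust prior, probe sets with 1 symbol, the mean of a gene's probe sets, the replicate block and each array left out. Python 3.11.15 with matplotlib 3.10.9 drew the figures.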

Additional observations from a re-analysis of the deposited data

How the results depend on the processing

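The count of 0 members called held in every comparison and replicate number test under every alternative run. This covered 53 values from other settings and 45 from arrays left out in turn. The medians of the members and of the glycolytic enzymes moved by less than the spread of those means between arrays (SD 0.12 and 0.11) under each. Call rule, variance, prior, compared groups and block leave these medians as they are. Leaving out an array moves a group mean by only part of that array's deviation. Small moves were therefore likely beforehand, and they are no evidence that the medians are stable. The spread of 0.12 is larger than the member medians are in size, so a member median could turn sign within it. With the replicate number as a block, which pairs the arrays, the calls were 0, 0 and 0, and the block changed no call of a member. The member medians stayed at 0.05, -0.0028 and -0.11, because the block cannot change log2 differences when every group has every number. Over all 17482 probe sets the block gave 0, 0 and 1 calls against 1, 0 and 0 without it. The lowest adjusted p of any named member over all alternatives was 0.0987, for PDK1 in the F test without TFPIα replicate 2. The count of members whose groups did not overlap in TFPIβ against TFPIα was 10 with centred arrays in place of 4 (27.8% in place of 11.1%). The share of all probe sets was 15.4% in place of 13.3%. In TFPIα against empty vector the count stayed at 12 (33.3%), against 25.2% in place of 23.3% of all probe sets. In TFPIβ against empty vector it stayed at 2 (5.56%), against 7.92% in place of 7.16%. Centring was an alternative chosen after the data were seen.

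With arrays left out in turn, 16 refits reversed the sign of a log2 difference of a member named in its comparison. Several refits fell on the same difference. The differences concerned, listed next, were each smaller in size than their standard error with all arrays. In TFPIα against empty vector VEGFA ranged from -0.47 to 0.32 and SLC2A1 from -0.15 to 0.14. In TFPIβ against empty vector LDHA ranged from -0.077 to 0.15, PGK1 from -0.044 to 0.17 and GAPDH from -0.050 to 0.098. In TFPIβ against TFPIα HIF1A ranged from -0.12 to 0.14, EPAS1 from -0.064 to 0.13 and VEGFA from -0.76 to 0.027. No other setting turned the sign of a named member. Changes of call rule, variance, prior, filter, compared groups or block leave a log2 difference as it is, so these could not turn a sign.

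With 3 arrays per group, the members' 95% confidence intervals for TFPIα against empty vector were narrowest for EGLN1, at -0.14 to 0.22. They were widest for VEGFA, at -1.27 to 0.99 (standard error 0.49), where even a 2-fold difference could be missed. Over all probe sets, 299 (1.71%) differed by 2-fold or more in that comparison, and 1 was called. The 0 calls among members, and intervals that include 0, therefore do not show that groups were alike. SLC2A3, PFKFB4 and ANKRD37 had signals near the filter, where background limits a difference.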
